A study of Mus musculus with 3 samples.

Results

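The genes described here make the parts of the MHC class I presentation pathway. They were chosen by name: 9 of the 31053 genes in the deposited matrices, namely the heavy chains H2-K1 and H2-D1, the light chain B2m, the peptide-loading genes Tap1, Tap2 and Tapbp, the immunoproteasome subunits Psmb8 and Psmb9, and the transactivator Nlrc5. Their levels were followed in every cell class of 3 single-cell RNA-sequencing libraries of live CD45+ cells (CD45 is the surface marker of white blood cells) sorted from mouse pancreas. One library came from animals that received PBS. The others came from animals that received whole glucan particles (WGP, a particulate beta-glucan from yeast) and were taken after 3 days (3-day WGP) or 7 days (7-day WGP). Per the study's methods the mice were young adult wild-type C57BL/6J animals of both sexes, and PBS or WGP was injected into the peritoneum. The labels give neither the sex nor the number of mice behind a library. There is 1 library per group, so the differences have no replicate check, none was tested, and all intervals cover counting error only.

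Class I molecules display peptides from proteins made inside the cell to CD8 T cells. Proteasomes cut the proteins, the Tap1-Tap2 transporter moves the peptides into the endoplasmic reticulum, tapasin (Tapbp) holds the empty heavy chain and B2m next to the transporter, and the loaded complex goes to the surface. Interferon-gamma is known to induce most of these genes, partly through Nlrc5, and to swap the catalytic subunits of the proteasome for the inducible ones made by Psmb8, Psmb9 and Psmb10.

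After removal of barcodes under 1000 UMIs (unique molecular identifiers, each an mRNA molecule read once) or over 30% mitochondrial UMIs, 14302 cells remained, from 4174 to 5249 per library, at a median of 5754 to 8077 UMIs. At most 9 barcodes were shared by any pair of libraries. Cells were clustered without the class I genes and clusters were named from markers. Of 26 clusters, 4 with 835 cells had no name. Erythroid cell-like cells (77 to 123 per library) and acinar cell-like cells (94 in 3-day WGP) were present although the sort was for CD45. The mix of female and male cells differed between the libraries. Among cells that had UMIs of either Xist or a Y-linked gene, Xist cells made up 54.0% in the PBS library, 16.0% at 3 days and 39.3% at 7 days. Among monocyte/macrophage-like cells the share was 98.8%, 14.2% and 48.2%, in the same order. For the main results, values within one sex are given too where both libraries held at least 50 cells of it. Free RNA also holds these genes: barcodes of at most 100 UMIs carried H2-K1 at 1710, 2643 and 3410 CPM (UMIs of the gene per 1000000 UMIs), in the order PBS, 3 days, 7 days.

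All genes but B2m and Nlrc5 lie in the MHC region of chromosome 17 (GRCm38, GENCODE annotation). From one end, Tapbp covers chr17:33915899-33929292 on the plus strand and H2-K1 chr17:33996017-34000347 on the minus strand. Psmb9 (chr17:34181987-34187764, minus strand) and Tap1 (chr17:34187553-34197225, plus strand) start next to each other, head to head, and their annotated transcripts overlap. Psmb8 (chr17:34197721-34201454) and Tap2 (chr17:34203527-34216321) follow on the plus strand, and H2-D1 (chr17:35262730-35267499, plus strand) lies farther along. B2m is at chr2:122147686-122153083 and Nlrc5 at chr8:94434356-94527272, both on the plus strand. All are protein-coding genes. The heavy chains come from a family of near-identical copies, so the sequenced ends were compared: 0 of 401 windows of 100 bases from the last 500 bases of each of the 9 transcripts occurred unchanged in a transcript of another gene.

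The promoters of 4 members are shown: those of the heavy chains carry like motifs, while those of B2m and Psmb8 differ from them and from each other. Each is the 250 bases before the RefSeq transcription start (GRCm38.p6), in the direction of transcription. Capitals mark every match, on either strand, to the interferon-stimulated response element, the GAS element TTCNNNGAA, the CCAAT box CCAAT or the NF-kB consensus. The windows are chr17:34000334-34000583 on the minus strand for H2-K1 (one of 2 listed starts), chr17:35262844-35263093 for H2-D1, chr2:122147437-122147686 for B2m and chr17:34197945-34198194 for Psmb8, the last 3 on the plus strand. The windows of H2-D1 and Psmb8, and that of Tapbp (not shown), lie inside the GENCODE gene spans given above. The bases before the outermost GENCODE starts of these genes were not searched.
H2-K1: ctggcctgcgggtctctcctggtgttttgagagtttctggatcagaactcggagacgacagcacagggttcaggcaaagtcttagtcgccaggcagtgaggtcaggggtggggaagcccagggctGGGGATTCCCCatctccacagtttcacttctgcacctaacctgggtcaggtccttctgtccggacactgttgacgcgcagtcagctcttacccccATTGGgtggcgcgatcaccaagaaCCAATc
H2-D1: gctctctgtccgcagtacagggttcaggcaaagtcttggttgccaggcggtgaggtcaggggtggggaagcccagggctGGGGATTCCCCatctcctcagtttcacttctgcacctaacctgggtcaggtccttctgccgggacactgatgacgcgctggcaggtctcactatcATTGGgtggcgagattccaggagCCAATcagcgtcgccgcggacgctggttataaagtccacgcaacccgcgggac
B2m: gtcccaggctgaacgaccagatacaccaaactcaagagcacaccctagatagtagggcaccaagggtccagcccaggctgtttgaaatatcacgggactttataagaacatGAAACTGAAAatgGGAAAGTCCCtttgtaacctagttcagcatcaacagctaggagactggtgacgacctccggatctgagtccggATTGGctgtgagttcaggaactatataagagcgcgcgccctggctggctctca
Psmb8: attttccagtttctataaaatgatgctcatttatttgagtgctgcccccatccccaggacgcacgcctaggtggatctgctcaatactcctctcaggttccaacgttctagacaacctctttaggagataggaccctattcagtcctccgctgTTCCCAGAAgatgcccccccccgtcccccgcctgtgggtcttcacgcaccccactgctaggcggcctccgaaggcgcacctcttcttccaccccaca

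RefSeq promoters were at hand for 7 of the 9 genes, not for Tap2 and Nlrc5. The NF-kB consensus was present in 3 of these 7, H2-K1, H2-D1 and B2m, against 7.25% of 32851 mouse promoters of the same length. In H2-K1 and H2-D1 it matched at overlapping positions on both strands, inside a run of 47 bases that both promoters share. B2m alone held the exact letters searched for the interferon-stimulated response element, which 2.98% of promoters had, at 139 to 130 bases before the start. Looser forms of this element were not searched, so the other promoters lack only the exact pattern. Psmb8 alone held the GAS element, present in 7.02% of promoters, at 97 to 89 bases before the start. A CCAAT box stood in 6 of 7, all but Psmb8, against 33.8% of promoters. Tap1 and Psmb9 share their promoter, since 225 positions of their windows were the same. These are letter matches and say nothing about binding.

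**Figure D1:**
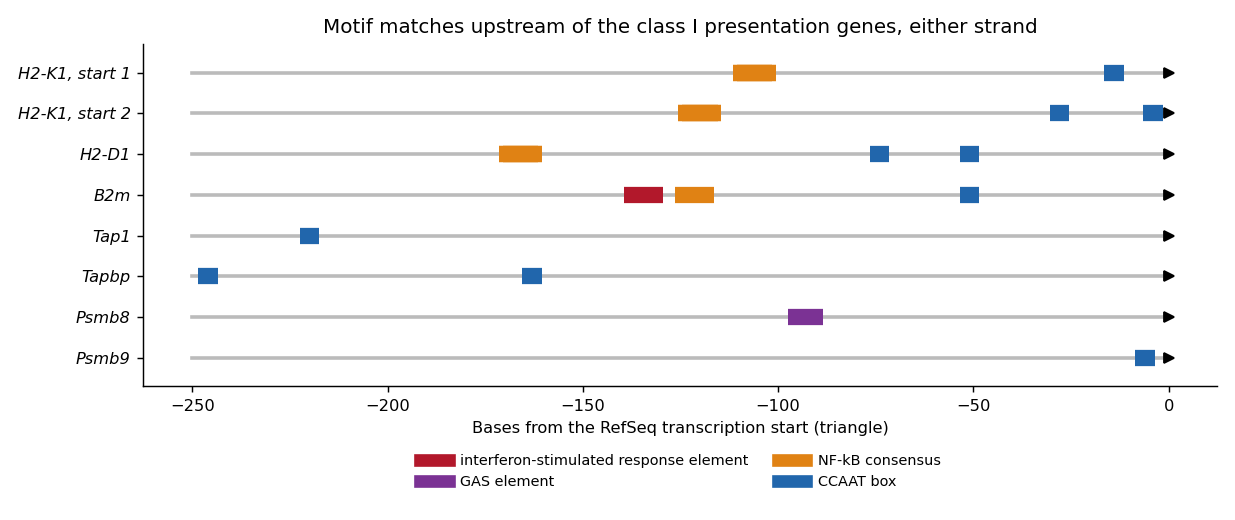
Motif matches on either strand (coloured blocks) along the 250 bases before each RefSeq transcription start (triangle), by gene; the x axis is the distance from the start in bases. NF-kB matches appear for H2-K1, H2-D1 and B2m, and Psmb8 has the one GAS match.

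In the PBS library each gene had its own order of cell classes, over the 11 classes with at least 50 cells. Levels are CPM over the summed UMIs of the class and are compared between classes for 1 gene at a time. The heavy chain H2-K1 was highest in ILC2-like cells (group 2 innate lymphoid cells) at 3367 CPM, NK cell-like cells at 3323 and gamma-delta T cell-like cells at 3134, whose neighbouring counting intervals overlapped. It was lower in T cell-like cells (2768 CPM), and stood at 1657 in plasma cell-like, 1628 in monocyte/macrophage-like, 1575 in B cell-like and 1306 in conventional DC-like cells (dendritic cells, DC). Neutrophil-like cells had 531 CPM and erythroid cell-like cells 27.7. The other heavy chain, H2-D1, and B2m were highest in a small Ly6C-low monocyte-like cluster of 50 cells, at 3816 and 4358 CPM.

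The loading and processing genes followed another order in PBS. Conventional DC-like cells led for Tap1 (207 CPM, its interval overlapping that of the Ly6C-low monocyte-like cluster) and Psmb9 (470 CPM), while they stood below the median class for H2-K1, H2-D1 and B2m. Gamma-delta T cell-like cells led for Tap2 (165 CPM), with an interval overlapping those of conventional DC-like cells (139 CPM) and T cell-like cells (132 CPM). Gamma-delta T cell-like cells also led for Psmb8, beside conventional DC-like cells with an overlapping interval (905 against 900 CPM). ILC2-like cells, at the top for H2-K1, had the lowest Psmb9 of all classes but erythroid cell-like cells, at 111 CPM. Its interval overlapped that of neutrophil-like cells, at 131 CPM. Nlrc5 was a low transcript everywhere: 41.0 CPM in T cell-like cells, 31.0 in NK cell-like cells, 18.0 in monocyte/macrophage-like cells and 3.40 in neutrophil-like cells, with most neighbours overlapping. Erythroid cell-like cells, filled with haemoglobin mRNA, were lowest for all 9 genes in all 3 libraries.

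Within the dendritic cells the contrast was sharper. Type 1 conventional DC-like cells, known for cross-presenting antigen on class I, had H2-K1 at 1075, 989 and 1365 CPM in PBS, at 3 days and at 7 days. The same cells had Psmb9 at 800, 806 and 1049 CPM and Psmb8 at 1240, 1460 and 1653 CPM. Their Psmb9 was thus far above, and their H2-K1 below, the monocyte/macrophage-like values in each library. The 3 surface genes together (H2-K1, H2-D1 and B2m) made up a median of 0.369% of a type 1 conventional DC-like cell's UMIs in PBS, with quartiles of 0.280% and 0.467%, against 0.627% in monocyte/macrophage-like cells (quartiles 0.491% and 0.805%).

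**Figure D2:**
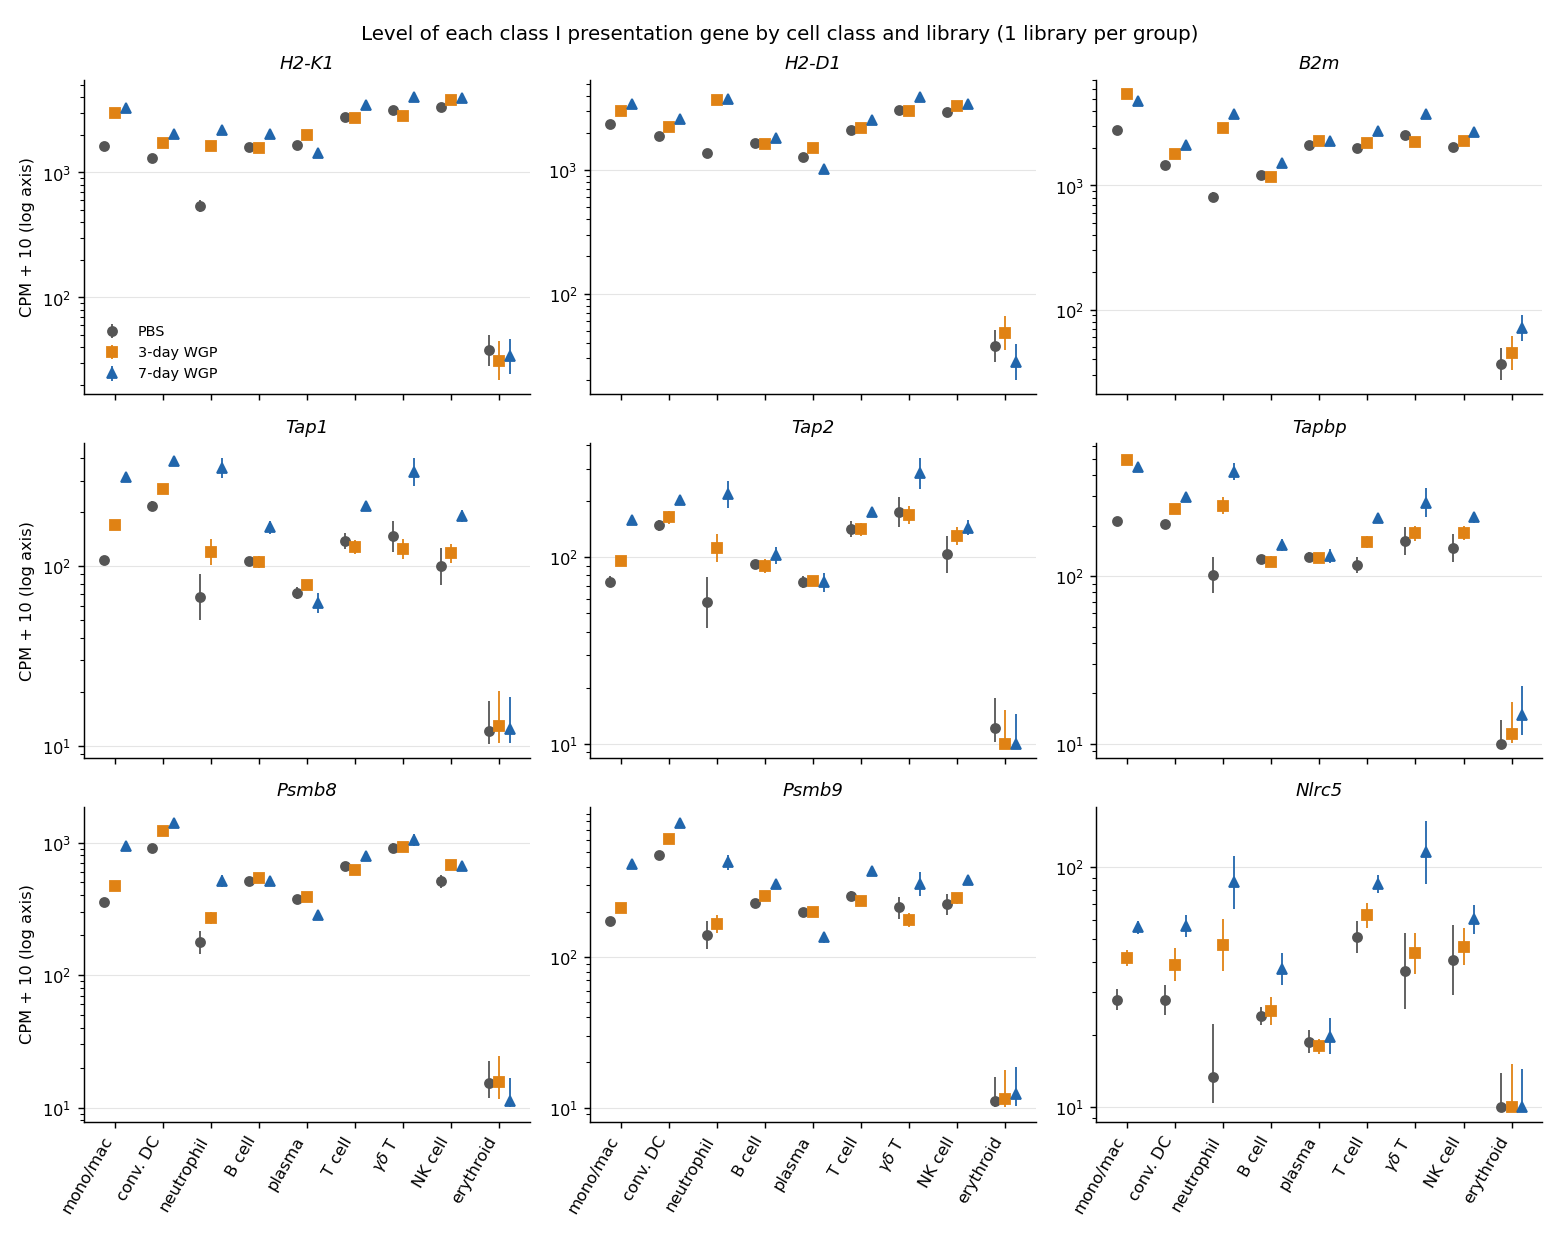
Level of each gene (CPM + 10, log axis) by cell class in PBS (circles), 3-day WGP (squares) and 7-day WGP (triangles); bars are exact Poisson 95% intervals and there is 1 library per group. Erythroid cell-like cells lie lowest in every panel, and the 7-day WGP symbols stand above PBS for all 9 genes in the monocyte/macrophage-like and neutrophil-like columns.

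WGP against PBS was compared within each class that had at least 50 cells in both libraries, as the log2 ratio of CPM + 10. A gene was called changed at 2-fold or more, a log2 ratio of 1. At 3 days, 10 classes gave 90 pairs of gene and class, of which 82 passed the filter of a mean of 20 CPM. Of these, 6 were 2-fold or more higher, where 2.61% of all gene and class pairs were, and 0 were 2-fold or more lower, where 1.27% were. At 7 days, 9 classes gave 81 pairs and 74 passed the filter. There 18 were higher, against 3.73% of all pairs, and 0 were lower, against 2.19%. The log2 ratio was above 0 in 67 of the 90 pairs at 3 days and in 70 of the 81 at 7 days. These counts include pairs that failed the filter, and the share of all gene and class pairs above 0 is not given here. All 24 calls lay in myeloid and gamma-delta T cell-like cells: neutrophil-like cells held 14, monocyte/macrophage-like cells 7, gamma-delta T cell-like cells 2 and conventional DC-like cells 1.

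Monocyte/macrophage-like cells (819, 780 and 1455 cells in PBS, 3-day WGP and 7-day WGP) carried more of all 9 transcripts after WGP, but the genes followed different time courses. H2-K1 went from 1628 CPM (95% interval 1602 to 1654) in PBS to 2973 (2942 to 3005) at 3 days and 3288 (3261 to 3315) at 7 days. H2-D1, the heavy chain with the smaller difference, stood at 2337, 2984 and 3379 CPM. B2m was at 2760, 5388 and 4758 CPM, so in the class taken whole it was highest at 3 days. Tapbp had the same shape, at 205, 487 and 438 CPM. For these surface and tapasin genes the 3-day level was already close to, or above, the 7-day level.

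The transporter and the immunoproteasome subunits had most of their difference later. Tap1 stood at 98.2 CPM (91.9 to 105) in PBS, 161 (154 to 168) at 3 days and 303 (294 to 311) at 7 days. Tap2 was at 64.1, 85.3 and 148 CPM. Psmb8 stood at 349, 460 and 924 CPM, and Psmb9 at 163, 201 and 408 CPM. Each of these genes had its larger step between 3 and 7 days. Nlrc5, which switches on class I promoters, was at 18.0, 31.6 and 45.9 CPM, with steps of like size in CPM. With every cell thinned to 1000 UMIs, a Psmb8 UMI was found in 25.5% of cells in PBS, 33.5% at 3 days and 56.8% at 7 days. Erythroid cell-like cells thinned the same way had one in 1.63%, 2.25% and 0 of 77 cells, the last with an upper bound of 4.68%. Without thinning the shares were 87.5%, 92.6% and 97.8% of monocyte/macrophage-like cells, at median depths of 10307, 14030 and 10886 UMIs, and 2.44%, 3.37% and 1.30% of erythroid cell-like cells, at 6483, 7438 and 12276 UMIs.

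As ratios to PBS, 1 of the 9 genes passed 2-fold at 3 days, Tapbp at a log2 ratio of 1.21 (95% interval 1.14 to 1.28), where 4.36% of genes tested in this class were 2-fold or more higher. B2m was at 0.96, H2-K1 at 0.87 (0.84 to 0.89) and Tap1 at 0.66 (0.55 to 0.76), and Psmb9 was lowest at 0.28 (0.19 to 0.37). The median of the 9 was 0.57, against -0.02 over all 5809 genes tested. At 7 days 6 genes passed, where 5.17% of genes did: Tap1 at 1.53 (1.44 to 1.62), Psmb8 at 1.38 (1.33 to 1.43), Psmb9 at 1.27 (1.19 to 1.35), Tap2 at 1.10 (0.98 to 1.21), Tapbp at 1.06 (0.99 to 1.13) and H2-K1 at 1.01 (0.98 to 1.04). Short of 2-fold were Nlrc5 at 0.99 (0.83 to 1.16), B2m at 0.78 (0.76 to 0.80) and H2-D1 at 0.53 (0.51 to 0.55). The median of the 9 was 1.06, against -0.08 over all genes tested.

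Set directly against 3-day WGP, 7-day WGP had Psmb8 and Psmb9 at log2 ratios of 0.99 each, Tap1 at 0.87 (0.80 to 0.95) and Tap2 at 0.73 (0.64 to 0.83). The same comparison gave H2-K1 0.14, H2-D1 0.18, Tapbp -0.15 (-0.20 to -0.10) and B2m -0.18 (-0.19 to -0.16). The counting intervals of the transporter and proteasome genes thus lay apart from those of the surface genes. None of the 9 passed 2-fold here, where 1.31% of genes tested did upwards. If every UMI of the acinar marker genes in these cells came from free RNA, its share of their UMIs was 7.80% for PBS, 2.08% at 3 days and 1.02% at 7 days of WGP. Free RNA was among the alternatives listed below, and the size of its part in the ratios of this class is not given here.

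The sex of the cells moved with these libraries and cannot be told apart from WGP across all cells. PBS held only 9 monocyte/macrophage-like cells with a Y-linked UMI and no Xist, so the male comparison with PBS could not be made. Within the Xist cells (771 in PBS and 82 in 3-day WGP) the 3-day log2 ratios were 0.80 for Tapbp, 0.68 for H2-K1, 0.64 for Tap1 and 0.47 for B2m, and 0 passed 2-fold. Within the Xist cells at 7 days (556 cells), Tap1 at 1.30, Psmb8 at 1.22 and Psmb9 at 1.16 passed, while H2-K1 stood at 0.93, Tapbp at 0.88, B2m at 0.77, Tap2 at 0.74, Nlrc5 at 0.72 and H2-D1 at 0.52. Between 3-day WGP and 7-day WGP both sexes could be compared. Psmb8 was at 1.09 in the Y cells and 0.86 in the Xist cells, Psmb9 at 1.08 and 0.85, and Tap1 at 1.05 and 0.67, in that order. B2m was at -0.23 in the Y cells and 0.30 in the Xist cells, so its lower 7-day level was seen in the Y cells and not in the Xist cells.

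**Figure D3:**
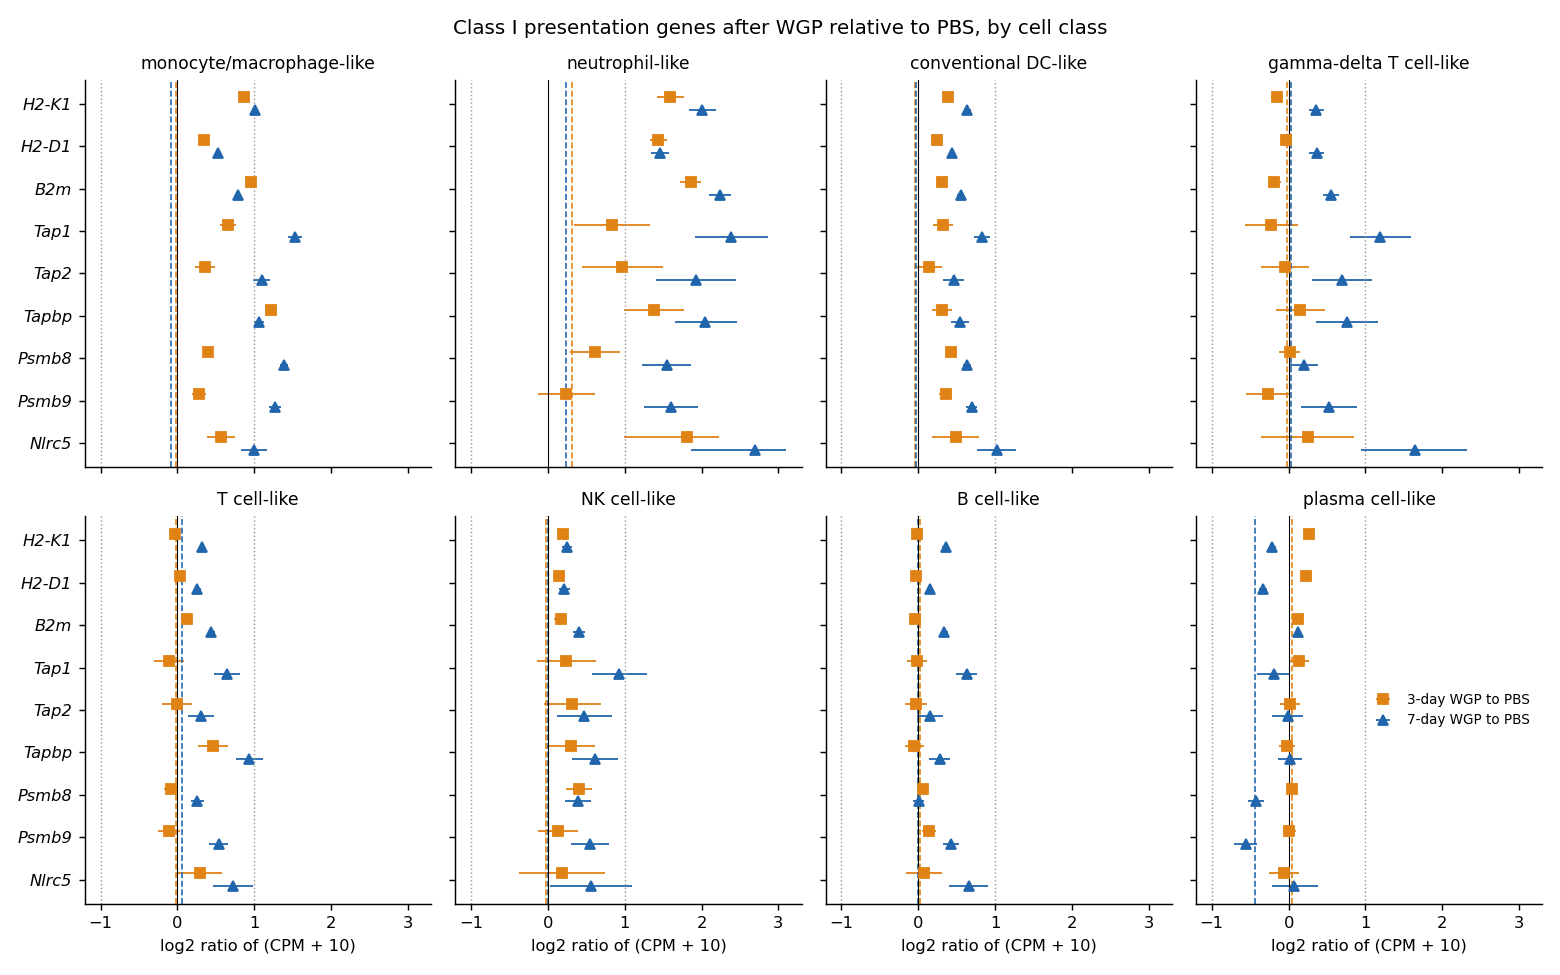
Log2 ratio of CPM + 10 to PBS (x axis) for each gene in 8 cell classes, 3-day WGP as squares and 7-day WGP as triangles, with exact conditional binomial 95% intervals; dotted lines mark 2-fold and dashed lines the median of all genes tested. In the monocyte/macrophage-like panel the squares of Tap1, Tap2, Psmb8 and Psmb9 lie well left of their triangles, while those of H2-K1, B2m and Tapbp lie close to or right of theirs.

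The make-up of the monocyte/macrophage-like class also changed. One cluster (cluster 5) held 85.7% of it in PBS, another (cluster 7) 54.5% of it at 3 days and yet another (cluster 0) 75.3% of it at 7 days. By sub-clusters named from markers, resident macrophage-like cells made up 68.9%, 11.9% and 2.43% of the class and the Ly6C-low monocyte-like cluster together in PBS, at 3 days and at 7 days. Inflammatory macrophage-like cells numbered 3, 20 and 514, so no comparison could be made within them. The genes were therefore followed within the sub-clusters that had at least 50 cells in both libraries compared.

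Resident macrophage-like cells could be compared between PBS (599 cells) and 3-day WGP (95 cells). H2-K1 was at 1597 and 2487 CPM, a log2 ratio of 0.64 (0.57 to 0.70), and B2m at 2790 and 4253 CPM, a ratio of 0.61 (0.56 to 0.66). Tapbp was at 0.79 (0.61 to 0.97), Tap1 at 0.52 (0.24 to 0.78), Psmb9 at 0.27 (0.04 to 0.50), Psmb8 at 0.21 (0.04 to 0.37) and H2-D1 at 0.18 (0.11 to 0.24). Nlrc5 alone passed 2-fold, at 1.08 (0.64 to 1.49), from 14.1 to 40.9 CPM, where 1.03% of genes tested were 2-fold or more higher. All 9 ratios were above 0. Xist cells were 99.8% of the sexed cells of this sub-cluster in PBS and 33.8% in 3-day WGP.

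Between 3-day and 7-day WGP, Tap1, Psmb8 and Psmb9 were higher at 7 days by less than 2-fold in each of 3 sub-clusters, with intervals above 0. In large peritoneal macrophage-like cells (269 and 101 cells), a type resident in the peritoneal cavity, Psmb9 went from 157 to 312 CPM, a log2 ratio of 0.95 (0.79 to 1.11). Psmb8 stood at 0.62 (0.50 to 0.74) and Tap1 at 0.59 (0.41 to 0.77), while B2m was at 0.02 (-0.02 to 0.05) and Tapbp at 0.01 (-0.10 to 0.11). In Arg1 macrophage-like cells (138 and 137 cells) Tap1 was at 0.70 (0.48 to 0.92), Psmb9 at 0.59 (0.40 to 0.77), Psmb8 at 0.47 (0.33 to 0.61), B2m at 0.06 and Tapbp at -0.05. Tap2 there was at 0.19 (-0.09 to 0.46) and Nlrc5 at -0.37 (-0.76 to 0.03), both with intervals across 0. Ly6C-high monocyte-like cells (97 and 244 cells), the precursors of inflammatory macrophages, had Tap1 at 0.56, Psmb9 at 0.49, Psmb8 at 0.43, Tapbp at 0.39 and B2m at 0.10. No gene passed 2-fold in these 3 sub-clusters, where 1.06%, 1.03% and 1.42% of genes tested did upwards. The lower 7-day B2m of the whole class was seen in none of these 3 sub-clusters. Large peritoneal macrophage-like cells went from 33.8% to 6.82% of the class and the Ly6C-low monocyte-like cluster together. Arg1 macrophage-like cells went from 17.3% to 9.24%. The part of this make-up in the class level of B2m was not tested. The share of Xist cells went from 12.1% at 3 days to 43.8% at 7 days in the large peritoneal macrophage-like cells, from 1.01% to 46.4% in the Arg1 macrophage-like cells and from 6.06% to 35.3% in the Ly6C-high monocyte-like cells. Within the Y cells of the Arg1 macrophage-like cells (98 and 59 cells) Psmb9 was at 0.80 (0.58 to 1.03), Tap1 at 0.73 (0.45 to 1.003), Psmb8 at 0.66 (0.48 to 0.83) and Nlrc5 at -0.21 (-0.72 to 0.31). Within those of the Ly6C-high monocyte-like cells (62 and 121 cells) Tap1 was at 0.75 (0.53 to 0.98), Psmb9 at 0.49 (0.29 to 0.69) and Psmb8 at 0.45 (0.32 to 0.58).

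The levels also differed between sub-clusters of 1 library. In 3-day WGP, B2m stood at 6701 CPM in large peritoneal macrophage-like cells, 6293 in Arg1 macrophage-like cells, 4253 in resident macrophage-like cells and 3228 in Ly6C-high monocyte-like cells. Psmb8 stood instead at 848 CPM in Ly6C-high monocyte-like cells, 364 in resident macrophage-like cells, 355 in large peritoneal macrophage-like cells and 321 in Arg1 macrophage-like cells. Of these 4 sub-clusters the monocytes were thus lowest in the light chain and highest in the immunoproteasome subunit. In 7-day WGP the inflammatory macrophage-like cells had B2m at 4698 CPM, Psmb8 at 1121 CPM and Tap1 at 349 CPM. Ly6C-low monocyte-like cells compared between PBS (125 cells) and 7-day WGP (95 cells) had log2 ratios from -0.10 to 0.50 with a median of 0.36 and 0 calls, where 0.626% of genes tested were 2-fold or more higher.

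**Figure D4:**
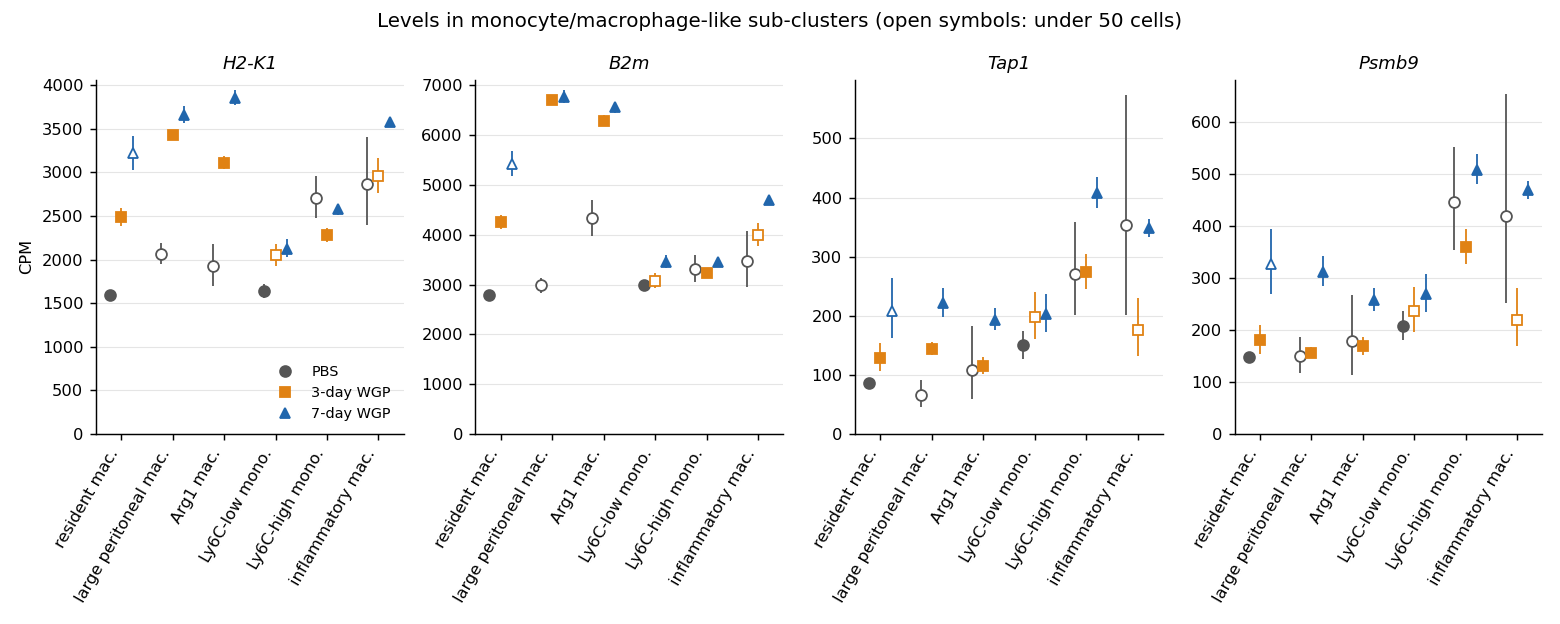
Level (CPM) of H2-K1, B2m, Tap1 and Psmb9 in 6 monocyte/macrophage-like sub-clusters by library, with exact Poisson 95% intervals; open symbols have under 50 cells. In both WGP libraries B2m is highest in the large peritoneal and Arg1 macrophage-like cells. Tap1 and Psmb9 are highest there in the Ly6C-high monocyte-like and 7-day inflammatory macrophage-like cells.

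Neutrophil-like cells (87, 234 and 193 cells) had the highest ratios. H2-K1 stood at 531 CPM (473 to 593) in PBS, 1620 (1547 to 1696) in 3-day WGP and 2170 (2058 to 2287) in 7-day WGP. B2m was at 794, 2904 and 3781 CPM, and H2-D1 at 1352, 3681 and 3725 CPM. Tap1 stood at 57.8 CPM (40.05 to 80.8), 111 (92.2 to 132) and 345 (301 to 393). At 3 days 5 of 9 genes passed 2-fold, B2m at 1.86 (1.72 to 2.00), Nlrc5 at 1.82 (0.99 to 2.23), H2-K1 at 1.59 (1.42 to 1.77), H2-D1 at 1.44 (1.33 to 1.55) and Tapbp at 1.38 (0.99 to 1.78), where 16.2% of genes tested in this class did. At 7 days all 9 passed, from 1.46 for H2-D1 to 2.69 for Nlrc5, where 15.7% of genes did. Nlrc5 rested on 2 PBS UMIs, against 42 and 49 after WGP, and its 7-day ratio had a lower bound of 1.86. Set against 3-day WGP, Tap1 at 1.55 and Psmb9 at 1.36 were called in 7-day WGP, where 2.72% of genes were. The medians of the 9 were 1.38 and 2.01, against 0.32 and 0.23 over all genes tested.

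The make-up of this class also differed between the libraries. The larger of its 2 clusters held 58.6% of it in PBS but 94.4% at 3 days and 96.9% at 7 days. The smaller cluster, led by Ngp, Camp, Lcn2 and Ltf, held 36, 13 and 6 cells, in the same order. Its median depth was 12792 UMIs, against 2869 in the larger, so its cells weigh more in the summed UMIs than their number shows. In PBS, H2-K1 stood at 1091 CPM in the larger cluster alone, against 531 in the whole class. Within that cluster alone (51, 221 and 187 cells), a choice made after seeing the data, 2 genes passed at 3 days, B2m at 1.06 (0.87 to 1.26) and Nlrc5 at 1.07 (-0.36 to 2.18), where 14.3% of genes did, and the median of the 9 was 0.44. Tap1 there was at -0.47 (-1.10 to 0.20) at 3 days. At 7 days 8 genes passed within the cluster, where 13.9% of genes did, with a median of 1.28. They ranged from 1.18 for H2-K1 (0.93 to 1.43) to 2.05 (0.62 to 3.15) for Nlrc5, and H2-D1 was at 0.42. Between 3-day and 7-day WGP in this cluster Tap1 was at 1.70 (1.38 to 2.03), Psmb9 at 1.44 (1.15 to 1.74), Psmb8 at 1.20 (0.95 to 1.44) and Tap2 at 1.04, all called where 3.11% of genes were, and H2-D1 at -0.02. The transporter and proteasome genes thus had the late course in neutrophil-like cells too. The neutrophil-like class held 22 Xist and 8 Y cells in PBS, 10 and 95 at 3 days and 21 and 49 at 7 days, too few to compare with PBS within a sex.

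Conventional DC-like cells, which started from the highest Tap1 and Psmb9, differed less. At 3 days their log2 ratios ran from 0.14 for Tap2 to 0.49 for Nlrc5 with 0 calls, where 0.819% of genes tested were called higher. At 7 days they ran from 0.44 for H2-D1 to 1.02 (0.77 to 1.27) for Nlrc5, the 1 call, where 2.32% of genes were. Tap1 was at 0.83 (0.72 to 0.94), from 207 to 375 CPM. Xist cells were 78.0%, 8.95% and 27.5% of the sexed conventional DC-like cells in PBS, at 3 days and at 7 days. The 7-day ratio of Nlrc5 was 0.58 (0.15 to 0.996) within Xist cells (224 and 82 cells), short of 2-fold, and 1.29 (0.69 to 1.84) within Y cells (63 and 216 cells). That of Tap1 was 0.70 (0.53 to 0.87) and 0.95 (0.71 to 1.20), in that order. The make-up of the class differed as well: cluster 12 held 59.9% of it in PBS and 70.7% at 7 days, and cluster 16 held 54.5% at 3 days. Migratory DC-like cells, with Nlrc5 at 68.6, 72.2 and 158.5 CPM, numbered 11, 32 and 30, too few to compare. A sub-cluster without a name, led by Cxcl10, Cxcl9 and Gbp2, held 1, 5 and 82 cells of the class in PBS, at 3 days and at 7 days. The part of the make-up in the Nlrc5 call was not tested. Type 1 conventional DC-like cells had 0 calls at either time, against 0.28% and 1.47% of genes, and a median of 0.39 at 7 days. Their Psmb9 stood at 0.01 and 0.39. The type 1 sub-cluster led by Rtl8b held 95, 84 and 26 cells in PBS, at 3 days and at 7 days, and that led by Dnase1l3 held 15, 16 and 72. Xist cells were 68.0%, 6.67% and 31.1% of the sexed type 1 conventional DC-like cells, in the same order.

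Gamma-delta T cell-like cells (132, 398 and 63 cells) passed 2-fold at 7 days and not at 3 days. At 3 days the 9 ratios lay between -0.27 for Psmb9 and 0.25 for Nlrc5, with 0 calls against 0.493% of genes tested. At 7 days Nlrc5 passed 2-fold at 1.65 (0.95 to 2.32), from 26.7 to 105 CPM on 17 and 38 UMIs. Tap1 passed at 1.20 (0.80 to 1.59), from 137 to 326 CPM. They were the 2 calls, where 2.25% of genes were called higher, and Psmb8 was at 0.20 (0.01 to 0.39). Against 3-day WGP, Tap1 at 1.43 (1.11 to 1.74) and Nlrc5 at 1.40 (0.86 to 1.91) were called in 7-day WGP, where 3.26% of genes were. Xist cells were 31.3%, 3.62% and 26.5% of the sexed gamma-delta T cell-like cells. Within Y cells, which could be compared at 3 days only (57 and 213 cells), the ratios ran from -0.39 for Psmb9 to 0.56 for Tapbp. In 7-day WGP these cells had the highest H2-K1 (4019 CPM), H2-D1 (3895 CPM), Tap2 (274 CPM) and Nlrc5 of the 10 classes, with an overlapping neighbour each time.

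In the other lymphoid classes taken whole no gene passed 2-fold. T cell-like cells (526, 615 and 686 cells) had ratios from -0.12 to 0.46 at 3 days and from 0.26 to 0.93 at 7 days, where 0.113% and 1.48% of genes were called higher. Tapbp was the highest at both times, at 0.46 (0.27 to 0.66) and 0.93 (0.76 to 1.11), from 107 to 151 and 213 CPM. Within Y cells its 7-day ratio was 1.53 and that of Tap1 1.14, and within Xist cells they were 0.49 and 0.13, though the mix of the sexes was alike (44.1%, 40.7% and 41.0% Xist cells). The sub-clusters gave 1 call each at 7 days, Tapbp at 1.04 (0.52 to 1.58) in CD4 T cell-like cells and Nlrc5 at 1.07 (0.50 to 1.66) in CD8 T cell-like cells, where 3.9% and 1.65% of genes were called. Xist cells were 42.4% of the sexed CD4 T cell-like cells in PBS and 12.9% at 7 days, and 62.7% and 31.5% of the CD8 T cell-like cells. The make-up of the T cell-like class differed too: CD4 T cell-like cells numbered 53, 32 and 121 in PBS, at 3 days and at 7 days. Monocyte/macrophage marker genes summed to 108, 164 and 567 CPM in the class. An unnamed sub-cluster led by Lyz2 and Il1b held 2, 4 and 15 of its cells. Their part in the ratios was not tested.

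NK cell-like cells (134, 430 and 405 cells) had ratios of 0.13 to 0.40 at 3 days and 0.21 to 0.93 at 7 days, where 0.571% and 1% of genes were called higher. Tap1 was highest at 7 days, at 0.93 (0.58 to 1.29). Xist cells were 58.9%, 6.96% and 36.0% of the sexed NK cell-like cells. Within them (56 in PBS and 113 at 7 days) Tap1 passed 2-fold, at 1.17 (0.65 to 1.72). B cell-like cells (1959, 839 and 518 cells) stayed within -0.05 to 0.14 at 3 days. At 7 days Nlrc5 was at 0.66 (0.40 to 0.91), Tap1 at 0.63 (0.49 to 0.77) and Psmb8 at 0.00 (-0.07 to 0.08), where 0.593% of genes were called. Their sex mix was alike, with 26.9%, 25.2% and 29.6% Xist cells. Within Y cells the 7-day ratios were 0.77 (0.41 to 1.12) for Nlrc5 and 0.83 (0.64 to 1.02) for Tap1, and within Xist cells 0.36 (-0.15 to 0.87) and 0.12 (-0.18 to 0.41). Erythroid marker genes summed to 150.3, 26.3 and 11475 CPM in B cell-like cells of PBS, 3-day WGP and 7-day WGP, all 5 of them detected at 7 days, and their part in the 7-day ratios was not tested. ILC2-like cells, compared at 3 days only, had H2-K1 at 3367 and 4349 CPM and ratios from -0.11 to 0.40, where 0.866% of genes were called. Xist cells were 44.9% and 3.08% of the sexed ILC2-like cells, and within Y cells (102 and 126 cells) H2-K1 was at 0.64 (0.53 to 0.74).

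Plasma cell-like cells (256 in PBS and 81 at 7 days) had no gene past 2-fold at 7 days, and the direction of most ratios below 0 turned with the scaling. In CPM, Psmb9 was at -0.56 (-0.71 to -0.41), Psmb8 at -0.42 (-0.53 to -0.32) and H2-D1 at -0.33, while B2m was at 0.12. The median of all genes tested in this class was -0.43, so the proteasome subunits lay near it and B2m above it. A total of 4.51% of genes were called lower and 1.06% higher. With TMM factors in place of the class total Psmb9 was at -0.04, Psmb8 at 0.11, H2-D1 at 0.22 and B2m at 0.67. Xist cells were 36.3% of the sexed cells in PBS and 2.78% at 7 days, and within Y cells (149 and 70 cells, in CPM) Psmb9 was at -0.56, Psmb8 at -0.52, H2-D1 at -0.31 and B2m at 0.44. At 3 days (584 cells) the ratios ran from -0.06 for Nlrc5 to 0.26 for H2-K1, where 0.206% of genes were called higher. In erythroid cell-like cells 3 of the 9 genes passed the filter on low values and 0 were called at either time, where 3.76% and 21.9% of genes were. Plasmacytoid DC-like cells, compared between 3-day WGP (83 cells) and 7-day WGP (54 cells) only, had 0 calls, where 2.27% of genes were, and Tap2 at 0.75 (0.24 to 1.27).

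The share of inducible subunits in each proteasome pair was counted next, since it does not depend on the class total. Psmb9 replaces Psmb6, Psmb8 replaces Psmb5 and Psmb10 replaces Psmb7 in the immunoproteasome. In monocyte/macrophage-like cells Psmb9 made up 48.5% (95% interval 46.8% to 50.3%) of the UMIs of its pair in PBS, 49.1% (47.7% to 50.5%) in 3-day WGP and 65.7% (64.8% to 66.6%) in 7-day WGP. Psmb8 stood at 73.9%, 72.5% and 82.7% of its pair. Neither share was higher at 3 days than in PBS beyond counting error, and both were at 7 days. Psmb10, in contrast, was at 67.0%, 74.1% and 80.6% of its pair, already higher at 3 days.

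The Psmb9 share varied by class and sub-cluster. It stood at 61.1%, 63.5% and 82.2% in neutrophil-like cells in PBS, 3-day WGP and 7-day WGP, and at 54.9%, 45.8% and 67.1% in gamma-delta T cell-like cells. Conventional DC-like cells held 70.3%, 72.4% and 75.9%, and plasma cell-like cells 56.9%, 52.1% and 56.5%. Type 1 conventional DC-like cells had a high and even share of 77.8%, 76.2% and 78.5%, though their make-up and sex mix differed between the libraries. From 3-day to 7-day WGP it went from 42.3% to 63.6% in large peritoneal macrophage-like cells and from 38.9% to 56.1% in Arg1 macrophage-like cells. Ly6C-high monocyte-like cells had 66.4% already at 3 days and 71.0% at 7 days.

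**Figure D5:**
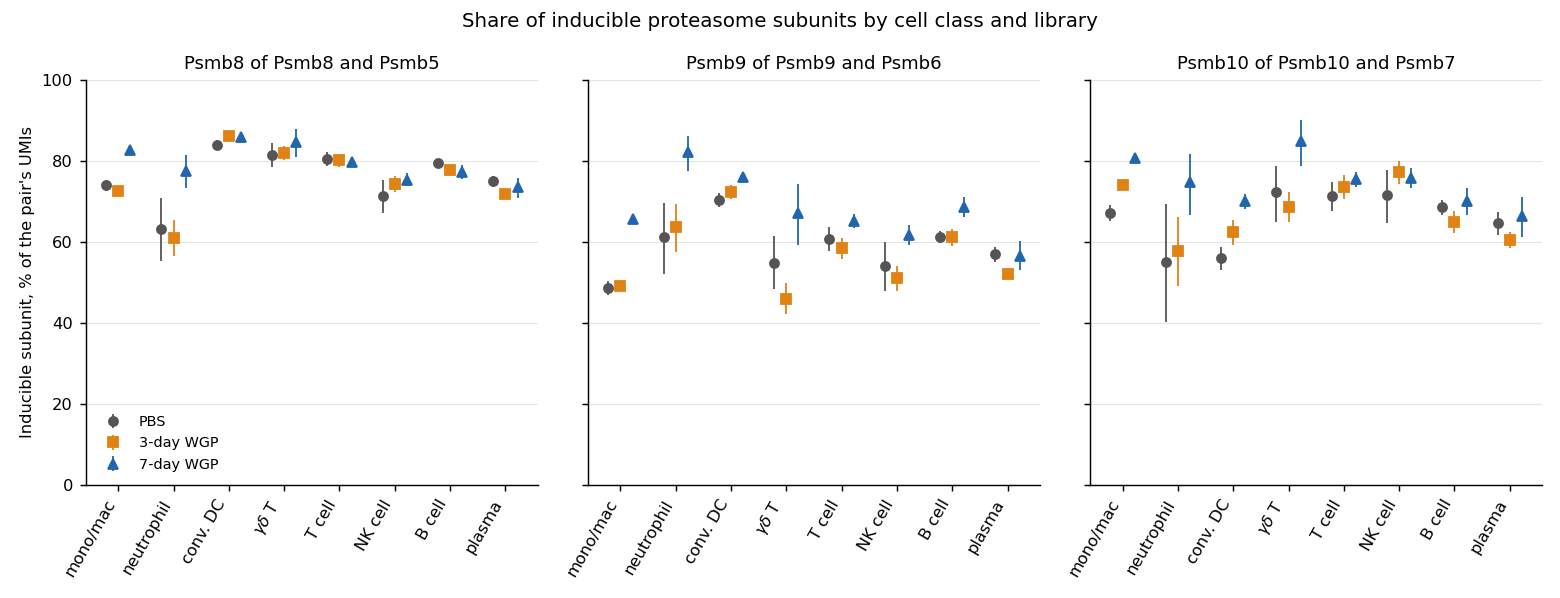
Share of the inducible subunit among the UMIs of its pair (y axis, %) by cell class and library, with exact (Clopper-Pearson) 95% intervals, for Psmb8, Psmb9 and Psmb10. In monocyte/macrophage-like cells the PBS and 3-day WGP shares of Psmb9 overlap (48.5% and 49.1%) and the 7-day WGP share is 65.7%.

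Other genes of the pathway were counted in monocyte/macrophage-like cells from lists chosen with earlier results known. Of 23 other class I genes 19 were tested. At 3 days 1 was 2-fold or more higher, the proteasome activator Psme2 at 1.18, a share near the 4.36% of all genes tested. At 7 days, where 5.17% of all genes were called, 7 were: the non-classical heavy chains H2-Q7 (1.95), H2-Q6 (1.44), H2-T22 (1.20) and H2-T23 (1.06), with Psme2 (1.65), Psmb10 (1.25) and the tapasin relative Tapbpl (1.15). The H2-Q and H2-T genes belong to a family of near-identical copies, so the split of reads among them is uncertain. The endoplasmic reticulum chaperones Calr, Canx and Pdia3, named after their values were seen, stood at 0.76, 0.47 and 0.05 at 3 days and at 0.39, -0.31 and -0.14 at 7 days. The 14 constitutive proteasome subunits had 0 calls at both times and medians of 0.30 and 0.44.

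The interferon and receptor list had medians of 0.04 at 3 days and 0.38 at 7 days, against -0.02 and -0.08 over all genes tested. Among interferon-stimulated genes 1 of 10 passed at 3 days, Gbp2 at 2.29, where 4.36% of all genes did, and 4 of 11 at 7 days, where 5.17% did: Cxcl10 (4.17), Gbp2 (3.62), Cxcl9 (3.52) and Gbp4 (3.33). Ifit3, also named after its values were seen, stood at -0.86 and -0.59. Of the 7 class II genes 0 passed at either time. Their median was -0.46 at 3 days, when that of the class I genes was 0.57, and 0.69 at 7 days. The class II transactivator Ciita stood at 85.6, 73.9 and 151 CPM, so its 3-day level was below PBS where that of Nlrc5 was above. Interferon-gamma mRNA (Ifng) was at 85.2, 80.7 and 317 CPM in T cell-like cells and at 214, 210 and 219 CPM in NK cell-like cells. The 7-day log2 ratio to PBS of Ifng was 1.78 (1.60 to 1.97) in T cell-like cells and 0.03 (-0.22 to 0.29) in NK cell-like cells. The make-up of the T cell-like class differed between the libraries, and its part in the Ifng ratio was not tested. In neutrophil-like cells at 7 days 11 of 11 interferon-stimulated genes tested and 9 of 16 other class I genes passed 2-fold, and 0 of 14 constitutive proteasome subunits did, where 15.7% of all genes tested were called. These counts are for the class taken whole, and the part of its changed make-up in them was not tested.

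The genes were last compared by pattern over 33 sums of class and library with at least 50 cells, which share their 3 libraries and are not independent. Pearson correlations of log2(CPM + 10) between members ran from 0.74 for Psmb9 with Nlrc5 to 0.97 for H2-K1 with H2-D1. Without the 3 erythroid cell-like sums, left out after seeing the data, they ran from 0.15 for B2m with Psmb9 to 0.85 for Tap1 with Psmb9. The high values for B2m and the heavy chains against Psmb9 therefore rested on the erythroid cell-like cells, and that for Tap1 with Psmb9, the pair that starts head to head, did not. Outside the members, the genes most like Nlrc5 were Ifi47 (0.95), Batf (0.91), Irf1 (0.89) and Mllt6 (0.89), and those most like Tap1 included Psme2 (0.97), Ogfr (0.95), Nfkbib (0.95) and Arid4a (0.93). For H2-K1 they were Tmem128 (0.98), Tm9sf3 (0.97), Aamp (0.97), Edf1 (0.97) and Map2k2 (0.97). Without erythroid cell-like cells, Ifi47 (0.92) stayed first for Nlrc5 and Psme2 (0.93) for Tap1, while the 2 genes most like H2-K1 became Il2rg (0.88) and H2-T22 (0.86).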

How the data were processed

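Live CD45+ cells of mouse pancreas were profiled with droplet-based 3' single-cell RNA-sequencing, 1 library for each of PBS, 3-day WGP and 7-day WGP. Per the study's methods and labels, the authors aligned reads to mm10 (GRCm38) with Cell Ranger 3.1.0 and deposited raw UMI counts per gene for all barcodes. From these counts, barcodes with at least 1000 UMIs and at most 30% mitochondrial UMIs were kept. The 9 genes and all gene lists were chosen with earlier results of these data known.

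Cells were clustered in R 4.3.3 with Seurat 5.3.0 and sctransform 0.4.2 (30 principal components, 3000 variable genes, resolution 0.8), leaving out the class I genes, Xist and Y-linked genes. A cluster was named when at least 3 markers were raised, with a mean log2 fold of at least 1 and a margin of 0.5 over the next name. Leaving a cluster led by islet hormone genes unnamed, and trying finer monocyte lists on clusters with no broad name, were decided after the clusters were seen. Scrublet (scanpy 1.11.5) called 0, 0 and 2 doublets in PBS, 3-day WGP and 7-day WGP, and none were removed in the values reported. Unnamed sub-clusters led by genes of another lineage stayed in the class sums, so doublets may remain. One of conventional DC-like cells, led by Trbc2 and Cd3d, held 14, 43 and 20 cells, in the same order. One of monocyte/macrophage-like cells, with Ms4a1 and Cd79a among its leading genes, held 15, 17 and 19.

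UMIs were summed per class and library and scaled to CPM. Ratios are log2 of CPM + 10, with conditional binomial 95% intervals, and genes under a mean of 20 CPM were not tested for 2-fold. Poisson intervals were used for CPM and Clopper-Pearson intervals for shares. Classes needed 50 cells in both libraries. The ratio step was tested on simulated data. Genes of the other lists were named when they passed 2-fold in monocyte/macrophage-like cells, and genes outside the lists when they were among the 5 most correlated with H2-K1, Tap1 or Nlrc5. Some genes that met these rules are not reported here. Alternatives covered normalization (TMM, edgeR 4.0.16), pseudocounts, cell filters, doublets, clustering, free RNA and sex.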

Additional observations from a re-analysis of the deposited data

How the results depend on the processing

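No paired analysis was possible because each group has 1 library and no test was made; for the same reason no replicate could be left out. No count reversed. Of the 171 member ratios over classes and times, 126 kept their sign under every alternative that could be made for them. All 24 called ratios did, of which 14 stayed past 2-fold throughout. The calls in neutrophil-like cells and the 7-day calls in gamma-delta T cell-like cells could not be compared within a sex. The sex alternative therefore did not cover them. The number called at 3 days over classes, 6, was 12 at a fold of 1.5, 0 within Xist cells (3 classes), 0 within Y cells (6 classes) and 3 with only the larger neutrophil-like cluster, a choice made after seeing the data. At 7 days the 18 calls became 34 at a fold of 1.5, 4 within Xist cells (5 classes) and 3 within Y cells (4 classes). Fewer classes could be compared within a sex, which lowers these counts by construction. In monocyte/macrophage-like cells the 1 call at 3 days was 2 with TMM, 3 without barcodes above the knee, 4 at a fold of 1.5 and 0 within Xist cells, and the 6 calls at 7 days were 3 with a pseudocount of 50 CPM and 3 within Xist cells. The cause of these shifts was not tested. The share of all genes called under each of these alternatives is not given here, so these counts are not set against a background. Depth limits the ratios of neutrophil-like cells for Nlrc5, which had 2 UMIs in PBS.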
